A study of Mus musculus with 3 samples.

Results

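Leukocyte genes were examined as a check for other cells in Omni-ATAC-seq libraries of sorted hair follicle stem cells (HFSCs). The 10 genes were listed as immune-cell genes of skin (Ptprc, Spi1, Tyrobp, Cd3e, Cd3g, Lck, Cd207, Cd74, H2-Ab1 and Ciita), out of 21851 protein-coding genes with an annotated start on chromosomes 1 to 19, X and Y. The rule names genes and uses no measured value, but the genes were chosen with earlier results of these data known. For each gene and library, peaks were sought within 1500 bases of its start sites (promoter peaks) and from 20 kb before the gene to its end (the span), in GRCm38 coordinates. All libraries came from dorsal skin of 6-month-old mice in telogen, when the follicle rests. The Msx2-WT group had 1 library (here WT) from hair cycle-matched C57BL/6J mice, and the Msx2-KO group had 2 libraries (replicates 1 and 2, here KO1 and KO2) from germline knockouts, in which a neomycin cassette was placed upstream of the second exon of Msx2. HFSCs were sorted as CD34+ CD49f+ Sca-1- cells. The sort as described used antibodies to these 3 proteins and a dye against dead cells, and no antibody to CD45 was named. The labels do not say how many animals a library drew on.

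Ptprc encodes CD45, a tyrosine phosphatase on the surface of all nucleated blood cells. Mouse epidermis and the upper hair follicle house Langerhans cells, which are dendritic cells carrying langerin and class II molecules, together with resident T cells, and the dermis adds macrophages, mast cells and further T cells. The regulatory DNA of leukocyte genes is open in the lineage that uses them and mostly closed in keratinocytes, so that an ATAC-seq peak at such a promoter can come from a leukocyte in the sort or from the HFSCs themselves. In bulk libraries, a few cells with a fully open site and many cells with a rarely open site cannot be told apart.

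Peak names in the lists of KO1 and KO2 read cKO where the labels read knockout, and those of KO1 hold a library number other than its label. The groups here follow the labels. Msx2 itself had a promoter peak in each library (15 tags in WT, 9 in KO1 and 16 in KO2), which does not check the genotype, because the allele leaves the promoter in place. By the labels WT was one batch, and KO1 and KO2 were another. Genotype and batch therefore cannot be told apart. The WT group had a single library, and genotypes were not tested against each other. Peaks were kept at a q-value below 0.01, which left 33654 summits in WT, 19450 in KO1 and 41091 in KO2. A tag is a sequenced end, extended by the peak caller, that covers the summit, and the commonest background was 1.74, 0.476 and 0.79 tags in the same order, which served as the measure of depth. The libraries thus had different floors. The lowest tag number that passed was 9 in WT (5.18 times background), 5 in KO1 (10.5 times) and 6 in KO2 (7.59 times), and nothing under 5, 3 and 3 tags was listed at all. Duplicate reads were kept by the authors, so all intervals given here cover counting error only.

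The promoters shown here are those of the defining genes of all leukocytes (Ptprc), of T cells (Cd3e and Lck) and of Langerhans cells (Cd207), none of which had a listed summit in any library, followed by the centre of the Lck gene-body peak that passed in 2 libraries. RefSeq promoters of the GRCm38.p6 build (250 bases before to 50 after a start) were matched for 5 of the 10 genes. Each is on the minus strand and is printed 5′ to 3′ along the gene. Capitals mark letters found in a search of both strands for 5 short motifs. The ETS core was taken as GGAAGT. The core of RUNX factors was taken as TGTGGT. For GATA factors the search used AGATAA. The AP-1 element was taken as TGANTCA. The GC box was taken as GGGCGG.
Ptprc promoter, chr1:138175256-138175555: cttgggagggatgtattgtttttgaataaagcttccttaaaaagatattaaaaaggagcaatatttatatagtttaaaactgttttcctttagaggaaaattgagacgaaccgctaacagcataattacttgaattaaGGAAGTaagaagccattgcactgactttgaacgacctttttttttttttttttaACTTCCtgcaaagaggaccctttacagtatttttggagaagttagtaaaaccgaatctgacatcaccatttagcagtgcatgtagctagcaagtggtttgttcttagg
Cd3e promoter, chr9:45009562-45009861: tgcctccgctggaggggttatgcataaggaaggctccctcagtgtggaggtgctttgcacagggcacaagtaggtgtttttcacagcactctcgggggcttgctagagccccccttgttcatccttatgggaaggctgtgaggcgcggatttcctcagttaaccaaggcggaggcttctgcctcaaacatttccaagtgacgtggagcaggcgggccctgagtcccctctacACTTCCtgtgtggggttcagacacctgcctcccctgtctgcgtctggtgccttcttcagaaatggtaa
Lck proximal promoter, chr4:129558323-129558622: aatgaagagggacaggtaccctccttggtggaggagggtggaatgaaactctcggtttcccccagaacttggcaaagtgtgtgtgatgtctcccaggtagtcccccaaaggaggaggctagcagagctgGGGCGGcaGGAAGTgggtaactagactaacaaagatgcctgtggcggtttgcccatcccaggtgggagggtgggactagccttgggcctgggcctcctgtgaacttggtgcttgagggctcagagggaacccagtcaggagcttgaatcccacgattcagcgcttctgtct
Cd207 promoter, chr6:83677808-83678107: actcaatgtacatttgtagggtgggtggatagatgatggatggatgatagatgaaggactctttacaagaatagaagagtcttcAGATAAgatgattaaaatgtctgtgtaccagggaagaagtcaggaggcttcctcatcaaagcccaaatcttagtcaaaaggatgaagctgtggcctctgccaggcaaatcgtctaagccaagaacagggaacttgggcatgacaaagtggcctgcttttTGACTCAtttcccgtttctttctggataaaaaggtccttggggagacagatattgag
Lck gene-body peak centre in WT, chr4:129556465-129556665: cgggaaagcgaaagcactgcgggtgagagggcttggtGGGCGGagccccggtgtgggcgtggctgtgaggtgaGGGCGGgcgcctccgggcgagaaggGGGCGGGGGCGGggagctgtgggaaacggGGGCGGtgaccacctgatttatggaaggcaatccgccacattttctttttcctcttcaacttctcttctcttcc

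The printed Ptprc, Cd3e and proximal Lck promoters held 2, 1 and 1 of the ETS letters. They held no RUNX, GATA or AP-1 letters, and the Lck one also held 1 GC box. The Cd207 promoter held 1 GATA and 1 AP-1 match. Promoters matched but not printed differed in their letters. A further Ptprc promoter overlaps the printed one, and held 1 GATA match and 1 ETS match that the printed one also holds. The distal Lck promoter held 1 ETS and 1 RUNX match. The Cd3g promoter held 1 GATA match and 1 GC box. ETS letters were in 23.8% of all 32851 RefSeq promoters, RUNX letters in 16.8%, GATA letters in 11.2%, AP-1 letters in 7.81% and the GC box in 35.7%. The Lck gene-body peak looked different from the promoters of its own gene. Its 201 bases held 5 GC boxes, of which 2 stand side by side, and none of the other letters, and it had 64.2% G+C and 0.78 of the CpG number expected from its base content, compared with 0.21 in the proximal Lck promoter. A GC box was in 26.8% of windows of the same length around the passing summits of WT, where ETS, RUNX, GATA and AP-1 letters were in 14.2%, 12.6%, 8.80% and 12.1%. These matches describe letters and not bound sites, and the GC box was added after the sequence had been seen.

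At the promoters, 1 of the 10 leukocyte genes had a peak in WT (H2-Ab1, 95% exact Clopper-Pearson interval 0.253% to 44.5%), and none had one in KO1 or in KO2 (0 of 10 in each, upper bound 30.8%). Over all protein-coding genes 47.1%, 37.9% and 53.7% had a promoter peak in these libraries. Start sites poor in CpG are less often open than CpG islands, and all 10 leukocyte genes were of this kind, with an observed over expected CpG of 0.121 to 0.341 within 500 bases of the first start (median 0.214, against 0.571 over all genes). Among the 8434 genes with a value under 0.4, a promoter peak was found in 12.0% in WT, 7.94% in KO1 and 14.3% in KO2. Against 12.0%, 7.94% and 14.3%, counts of 1, 0 and 0 of 10 are near the background. The sorted cells' own low-CpG genes set the upper end: of 16 HFSC and basal keratinocyte genes, 5 were under the same limit (Krt5, Krt14, Krt15, Krt17 and Trp63), and 5, 2 and 5 of them had a promoter peak.

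**Figure D1:**
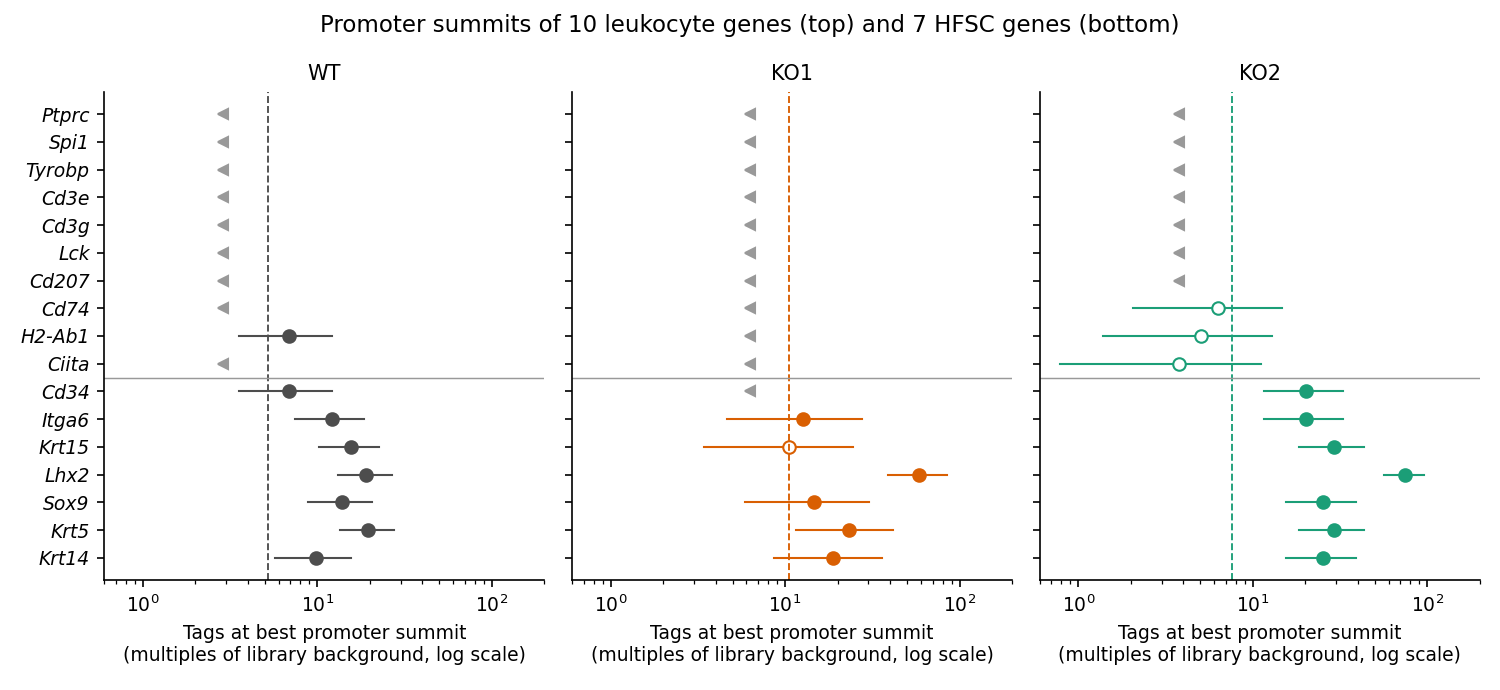
Tags at the best promoter summit of each gene, as multiples of the library background on a log scale, for the 10 leukocyte genes (above the grey line) and 7 HFSC genes (below it), 1 panel per library. Filled points passed the q-value limit, open points were listed without passing, bars are 95% Poisson intervals, grey arrowheads stand at the lowest listed level for genes with no listed summit, and the dashed line is the lowest tag number that passed in that library. H2-Ab1 in WT is the only filled point among the leukocyte genes, and Krt15 in KO1 is open on the dashed line because its local background was higher.

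By role, Ptprc, Spi1 and Tyrobp, used by all leukocytes or by several kinds of them, had no peak at their starts. Ptprc had no listed summit within 1500 bases of its 3 annotated starts in any library, on chromosome 1 between 138175267 and 138175306 (minus strand). Spi1, which encodes the myeloid and B cell factor PU.1, had none at its start at 91096096 on chromosome 2. Tyrobp, which encodes the adaptor DAP12 of natural killer and myeloid cells, had none at 30413788 on chromosome 7. An unlisted promoter allows any level under 2.88 times background in WT, 6.30 times in KO1 and 3.80 times in KO2, so that KO1 could not have shown a weak site. For comparison, Cd34, whose product the sort selected, gave 12 promoter tags in WT, none listed in KO1 and 16 in KO2. Itga6, which encodes CD49f, gave 21, 6 and 16 tags. Thus 1 of these 2 genes of the gate also stayed below detection in KO1.

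The T cell genes gave the same picture. Cd3e and Cd3g encode chains of the CD3 complex that carries the T cell receptor signal, and Lck encodes the kinase that starts it. None of the 3 had a listed summit within 1500 bases of a start in any library. Cd3g had no listed summit anywhere in its span of 30.9 kb in any library, the only one of the 10 genes so placed. Cd207, which encodes langerin of the Langerhans cell's Birbeck granule, had no promoter summit either. Within its span the one listed summit held 3 tags in KO1, 18267 bases before the start and inside an intron of Vax2os, with a −log10 q of 0.53.

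The class II genes were the ones with promoter tags. H2-Ab1 encodes the beta chain of the class II molecule I-A, Cd74 encodes the invariant chain that guards its groove, and Ciita encodes the transactivator that switches class II genes on. In WT the H2-Ab1 peak spanned chr17:34263120-34263385, with its summit 11 bases after an annotated start, in the 5′ untranslated region. It held 12 tags (95% Poisson interval 6.20 to 21.0), which was 6.90 times background, with a deposited fold enrichment of 4.75 and a −log10 q of 4.62. This was a weak peak for its library, since 58.6% of passing summits had a larger −log10 p and the median gene with a promoter peak had 24 tags there. KO1 listed no summit at this start. KO2 listed 3 summits of 4 tags each, at 1458 and 10 bases before and 1346 bases after the nearest start, each with a −log10 q of 0.85.

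The floors of the libraries bear on that difference. Scaled by background, 12 tags in WT equal 5.45 in KO2 and 3.29 in KO1, both under the lowest passing numbers of 6 and 5. Scaled by the median promoter peak instead, they equal 10.5 and 6.5, both above them. The H2-Ab1 level of WT would thus have passed in KO1 and KO2 on one scale and not on the other. Over all genes, 462 (2.11%) had a promoter peak in WT alone and 506 (2.32%) had one in KO1 and KO2 and not in WT, where the leukocyte genes counted 1 and 0. The other 9 had no promoter peak in any library, a state shared by 9572 genes (43.8%).

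Cd74 and Ciita had tags at their starts only in KO2, below the limit. Cd74 held 5 tags 198 bases before its start (−log10 q 1.59), and Ciita held 3 tags 78 bases after one of its 5 starts, at 10488279 on chromosome 16 (−log10 q 0.20). With H2-Ab1, all 3 class II genes of the list thus had a listed promoter summit in that library, and the other 7 leukocyte genes had none in it. No share over all genes was taken at this looser limit, so the count has no background beside it. Counts of 3 to 5 tags sit at the edge of what was listed, and their −log10 q values were all under 2.

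Over the whole spans, promoters included, peaks were found in 4 genes in WT (Cd3e, Spi1, H2-Ab1 by its promoter peak, and Lck), 2 in KO1 (Spi1 and Cd74) and 3 in KO2 (Spi1, Cd74 and Lck). Over all genes 64.3%, 52.6% and 69.0% had a peak in the same kind of span. The 5 genes Ptprc, Cd3g, Cd207, Tyrobp and Ciita had none in any library. Cd3e and H2-Ab1 had a span peak in WT alone (3.38% of all genes) and Cd74 in KO1 and KO2 and not in WT (2.46% of all genes). Merged, the spans covered 0.471 Mb and held 8, 3 and 8 passing summits, or 17.0 per Mb in WT (95% Poisson interval 7.33 to 33.5), 6.37 in KO1 (1.31 to 18.6) and 17.0 in KO2 (7.33 to 33.5). Genome-wide densities of 12.3, 7.14 and 15.1 per Mb lay within each interval. In KO1 and KO2 some of these summits lie in the same peak, whereas the intervals count each summit as independent. Away from every start, 5, 1 and 5 summits remained, which is 10.6, 2.12 and 10.6 per Mb against 8.13, 4.21 and 10.4 over the genome.

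**Figure D2:**
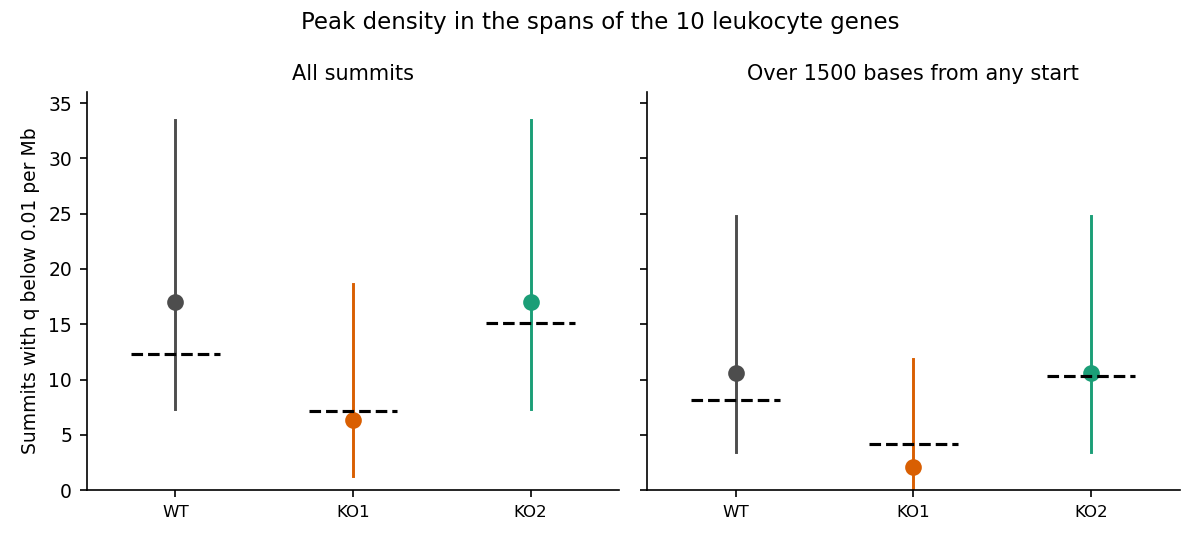
Passing summits per Mb in the merged spans of the 10 leukocyte genes, with all summits on the left and those over 1500 bases from any protein-coding start on the right. Points are the density in the spans, bars are 95% Poisson intervals that count each summit as independent, and dashed lines are the genome-wide density of the same library. Each dashed line crosses its bar.

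Spi1 was the one gene with a span peak in all libraries, and its strongest summits lay at the promoter of a neighbour. Its span reaches the promoter of Slc39a13, a zinc transporter gene, where WT had summits of 30 and 46 tags, KO1 had 18 and 30, and KO2 had 31, 22 and 50. A peak in the last exon of Spi1 stood apart from these. It held 14 tags in WT (8.06 times background, −log10 q 6.12) and 11 in KO2 (13.9 times, −log10 q 7.54), and KO1 listed none. At the background of KO1, the 11 tags of KO2 equal 6.63 and the 14 of WT equal 3.83, with 5 the lowest number that passed. By the median promoter peak of KO1 they equal 6.81 and 7.58, both above 5. The summits lay 19141 and 19144 bases after the start of Spi1, and 2907 and 2904 bases before that of Mybpc3, so position does not assign the site to one gene. A further summit 17676 bases before the start had 9 tags in WT (−log10 q 2.31) and, below the limit, 4 tags in KO2.

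The Lck peak whose sequence is printed above was placed in the gene body. In WT it covered chr4:129556245-129557075, with its summit 1807 bases after the proximal start, in the intron between exons 5 and 6 of the 12-exon transcript. It held 15 tags there (95% Poisson interval 8.40 to 24.7, 8.63 times background, −log10 q 7.24). In KO2 it covered chr4:129556162-129557049, with the summit at 1692 bases, in exon 5, and held 12 tags (15.2 times background, −log10 q 8.03). KO1 listed nothing at this site. At the background of KO1, the 12 tags of KO2 equal 7.23 and the 15 of WT equal 4.11, on either side of its lowest passing number of 5. By the median promoter peak of KO1 they equal 7.4 and 8.1, both above 5. The site lies just beyond the promoter window of 1500 bases, and a window of 3000 bases counted Lck in both libraries. A second summit, 11482 bases before the first start of Lck, had 12 tags in WT (−log10 q 4.62) and 4 tags below the limit in KO2, and it lay 6574 bases from the start of Fam167b.

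Cd3e had 1 span peak, of 12 tags in WT (−log10 q 4.62), 18045 bases before its start and 12141 bases before that of Mpzl2, an epithelial adhesion gene nearer to it. No Msx2-KO library listed a summit there, and KO2 had 3 tags in an intron of Cd3e (−log10 q 0.20). Cd74 went the other way. KO1 had a peak of 5 tags 16639 bases before the start (−log10 q 2.23), and KO2 had 7 and 8 tags at 16470 and 15311 bases before it (−log10 q 2.15 for each) and 14 tags at 10616 bases before it (−log10 q 9.13). WT listed no summit in the Cd74 span. The 5 tags of KO1 and the 7 and 8 of KO2 equal 18.3, 15.4 and 17.6 at the background of WT. By its median promoter peak they equal 9.23, 8 and 9.14, near its lowest passing number of 9. The 14 tags equal 30.8 at the background of WT and 16 by its median promoter peak, both above its lowest passing number of 9, and genotype and batch cannot be told apart. KO1 also lacked that summit, where they equal 8.44 against a lowest passing number of 5, so the 2 KO libraries differed from each other there as well.

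Tags below the limit made up the rest. In WT, Ptprc had 6 listed summits of 5 to 8 tags over 133 kb, the best of them 22578 bases into the gene with 8 tags and a −log10 q of 1.63. KO2 had 4 tags 23006 bases into Ptprc (−log10 q 0.85), in an interval that overlaps the one with 8 tags in WT. Tyrobp had 8 tags 11683 bases before its start in WT (−log10 q 1.63) and nothing listed in the other libraries. Ciita had 5 tags at each of 2 sites in its gene body in WT and 3 tags 12959 bases before its first start in KO2. In all, the merged spans held 19 listed summits in WT, 6 in KO1 and 19 in KO2, passing or not, so that KO1 had the fewest by either limit. The same held over the genome, where 104376, 36494 and 83318 summits were listed in WT, KO1 and KO2.

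**Figure D3:**
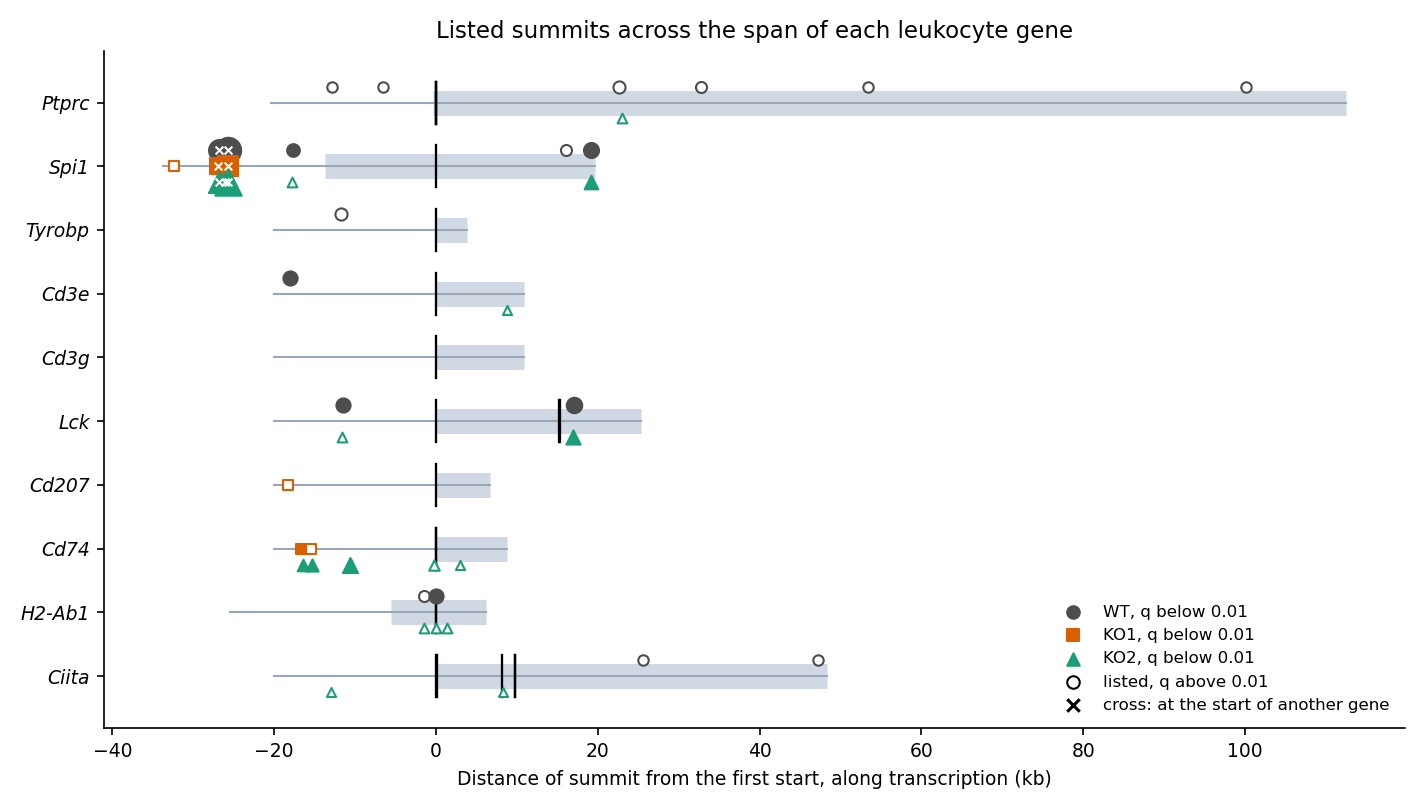
Every listed summit in the spans of the 10 leukocyte genes, by distance in kb from the first start along the direction of transcription. Blue-grey bars are the genes, thin lines the spans, black ticks the annotated starts; marker shape and colour give the library, marker area grows with tags, filled markers passed the q-value limit, and crosses mark summits at the start of another gene. The filled markers at the far left of Spi1 are the Slc39a13 promoter, Lck carries filled markers of 2 libraries beyond its second start, and Cd3g is empty.

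A wider set of 77 leukocyte genes in 6 lists was examined in the same way, and 11 of them had a promoter peak in WT (14.3%, interval 7.35% to 24.1%), 6 in KO1 (7.79%, 2.91% to 16.2%) and 13 in KO2 (16.9%, 9.31% to 27.1%). These shares stand below the 47.1%, 37.9% and 53.7% of all genes. Of the 58 with low-CpG starts, 2, 0 and 4 had a peak, where 12.0%, 7.94% and 14.3% of all low-CpG starts had one. The 8 B cell genes and the 9 mast cell genes had none in any library. Of 12 further pan-leukocyte genes none had a peak in WT or KO1, and 2 had one in KO2. These were Ikzf1, which encodes the lymphoid factor Ikaros, with 8 tags, and Arhgdib, a gene used in blood cells, with 6 tags, and both were named after their values were seen.

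Several of the genes with a peak in the other lists are known to be used outside leukocytes as well. Tags given for a listed gene are those of its best promoter summit in each library, which need not be the same site. Of 20 T and natural killer cell genes, 3, 1 and 2 had a promoter peak. Gata3, a T cell factor that also acts in the hair follicle, had 44, 23 and 34 tags, and Cd247, which encodes the CD3 zeta chain, had 10 tags in WT alone, 1340 bases before a start. The third of the WT peaks was at Bcl11b, a T cell factor gene named after its values were seen, which had 18 tags there, none listed in KO1 and 16 in KO2. Of 20 Langerhans, dendritic and macrophage genes, 3, 2 and 2 had one. Cebpa, which encodes a factor of myeloid cells and of differentiating keratinocytes, had 54, 9 and 42 tags, whereas Irf8, a dendritic cell factor, had 9 tags in WT (−log10 q 2.31) and 4 below the limit in KO2.

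The 8 further class II genes had a promoter peak in 5, 3 and 7. The factors Rfx5 (25, 13 and 22 tags), Rfxap (29, 25 and 33) and Rfxank (52, 13 and 37), which assemble on class II promoters and are made in most cells, accounted for all 3 of the peaks in KO1. The Rfxank summit also lay at the starts of Borcs8 and Mef2b. The class II genes named next were chosen after their values were seen. H2-DMa, which has a CpG-rich start, had its best summits at different starts: 40 tags in WT at a start of its own, and 12 tags below the limit in KO1 and 33 in KO2 at one that lies by the start of Brd2, so these values are not 1 site compared. The list has 4 genes with CpG-poor starts like H2-Ab1, namely H2-Aa, H2-Eb1, H2-DMb1 and H2-Ob, and 1, 0 and 3 of them had a promoter peak, with 12.0%, 7.94% and 14.3% over all low-CpG starts. H2-Ob had no listed summit in any library. H2-Aa, the alpha chain partner of H2-Ab1, had 9 tags in KO2 (−log10 q 5.27), and H2-Eb1 had 8 (−log10 q 4.09), with no summit listed for either in the other libraries. H2-DMb1, a chain of the peptide exchanger H2-DM, had 13 tags in WT and 11 in KO2. Neither these 4 genes nor H2-Ab1 had a listed promoter summit in KO1. Whether the class II peaks came from antigen-presenting cells in the sort was not tested. Of other leukocyte genes, Ptprc, Spi1, Tyrobp and Cd207 had no listed promoter summit in any library. Irf8 passed in WT (9 tags), and Ikzf1 (8 tags) and Arhgdib (6 tags) passed in KO2.

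**Figure D4:**
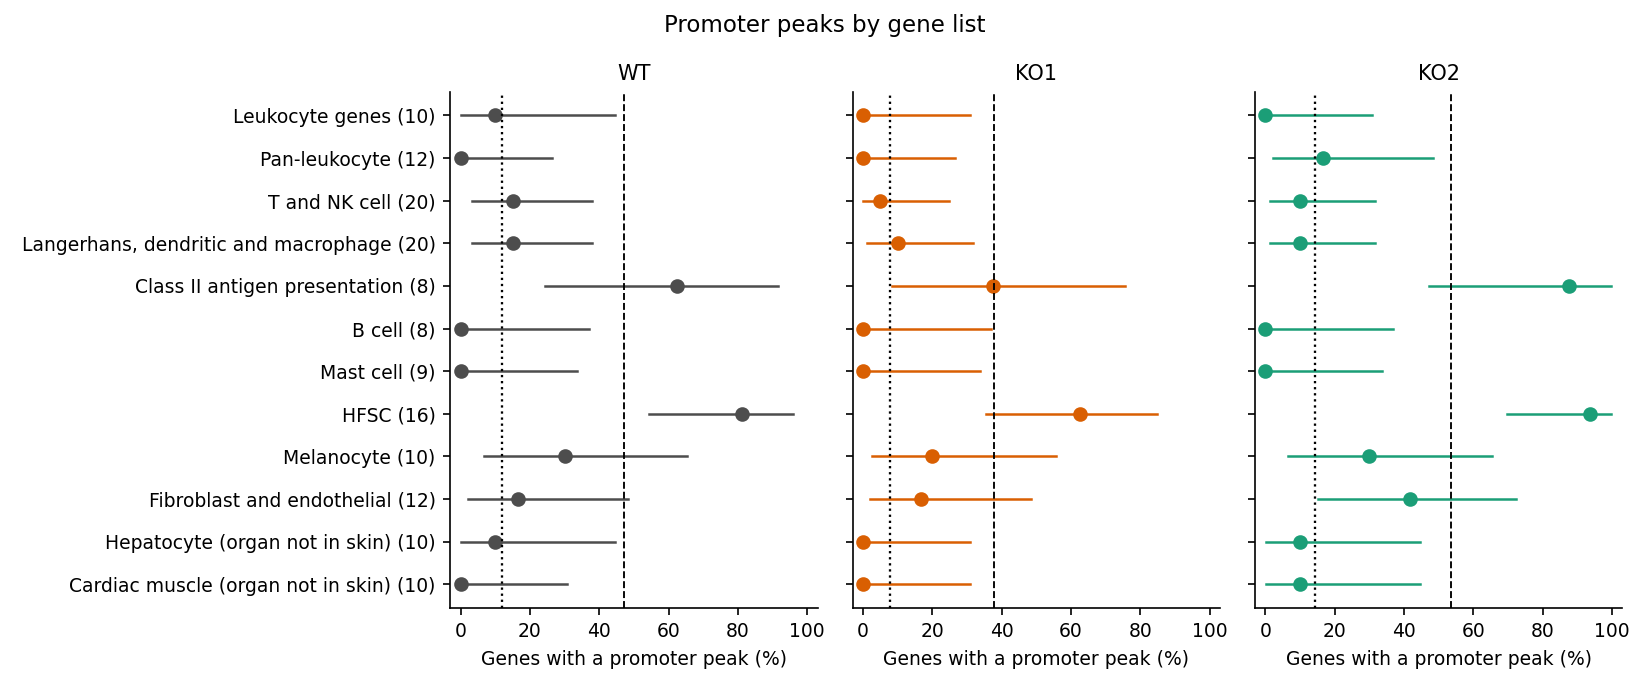
Share of the genes of each list with a promoter peak, 1 panel per library, with the number of genes in brackets. Points are shares in percent, bars are 95% exact Clopper-Pearson intervals, dashed lines are the share over all protein-coding genes (47.1%, 37.9% and 53.7%) and dotted lines that over low-CpG starts (12.0%, 7.94% and 14.3%). HFSC genes lie to the right of the dashed line in each panel, and the 10 leukocyte genes lie left of the dotted line in each.

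The HFSC list gave the level at promoters of genes that these cells are known to use. Of its 16 genes, 13, 10 and 15 had a promoter peak, with a median over the genes with a peak of 14.4, 17.9 and 25.3 times background, compared with 6.90 times for H2-Ab1 in WT. Krt15, a bulge keratin, had 27 tags in WT, 5 below the limit in KO1 and 23 in KO2. Lhx2 (33, 28 and 59 tags) and Sox9 (24, 7 and 20), both encoding HFSC factors, and the basal keratins Krt5 (34, 11 and 23) and Krt14 (17, 9 and 20) passed in all libraries. H2-Ab1 had as many tags in WT as Cd34 had, 12 each.

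Lists of other cells put the leukocyte counts beside cells that share the follicle and cells that skin lacks. Of 10 melanocyte genes, 3, 2 and 3 had a promoter peak. Dct, a melanin synthesis gene, had 19, 17 and 33 tags, more than any of the 10 leukocyte genes, and Pmel had 25, 15 and 23 at a summit it shares with Cdk2. Of 12 fibroblast and endothelial genes, 2, 2 and 5 had one. Of 10 liver genes, 1, 0 and 1 had one, and of 10 heart muscle genes, 0, 0 and 1. The 10 leukocyte genes, at 1, 0 and 0, thus had counts like those of liver and heart genes in the same libraries, and with 10 genes in a list such counts leave wide intervals.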

How the data were processed

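Omni-ATAC-seq peak lists of 1 Msx2-WT and 2 Msx2-KO HFSC libraries were analysed, and RNA-seq was not used here. According to its methods section, Trimmomatic was used by the authors for trimming, BWA-MEM for alignment to GRCm38 without mitochondrial reads, and MACS2 for peaks of each library with duplicates kept (the submitters' processing notes also name Partek, and tool versions for BWA and MACS2 are not given in the sources used here). The authors deposited for each summit a fold enrichment (a ratio of tags plus 1 to local background plus 1), a −log10 p and a −log10 q, and a score that was not used. The methods name a q-value limit of 0.01, but the deposited lists end where p reaches 0.01, so summits with a −log10 q above 2.0 were kept. Summits outside chromosomes 1 to 19, X and Y, mitochondrial ones among them, were left out.

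Tag numbers were solved from the fold and the −log10 p, since they must be whole. A whole number within a tolerance of 0.01 on −log10 p was found for 99.9%, 99.9% and 99.95% of summits of Msx2-WT and Msx2-KO replicates 1 and 2. Tag recovery and peak placement were tested on simulated data. The commonest background of each library stood for its depth, since the lists give no read totals. Starts came from protein-coding transcripts of the basic GENCODE M21 annotation. A promoter peak had its summit within 1500 bases of a start, as in the study's methods. CpG content was taken from GRCm38.p6. Shares had Clopper-Pearson intervals, tag numbers and densities Poisson intervals, all at 95%.

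The 10 genes and all comparison lists were chosen with earlier results of these data known. The comparison lists were 6 leukocyte lists (pan-leukocyte, T and NK cell, Langerhans, dendritic and macrophage, class II, B cell and mast cell) and lists for HFSCs, melanocytes, fibroblasts and endothelium, liver and heart muscle. All 10 genes were named. Other leukocyte genes were named where the promoter peak passed in all libraries, in Msx2-WT alone, or in the 2 Msx2-KO libraries alone. Cd34, Itga6, Krt15, Lhx2, Sox9, Krt5 and Krt14 stood for the HFSC list, and at most 3 genes with a peak in all libraries for each remaining list. A gene that this rule would name is not reported here. Groups follow the labels, and no p-value between them was computed. The alternatives tried were a stricter −log10 q of at least 5, every deposited peak, lists of equal length, promoter windows of 500 and 3000 bases, the outermost start alone, spans from 5 and 50 kb before the gene, leaving out peaks at starts of other genes, placing peaks by any overlap, and leaving out each Msx2-KO library. Scripts ran in Python 3.11.15 with scipy 1.17.1, numpy 2.4.6 and pandas 2.3.3, and figures were drawn with matplotlib 3.10.9.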

Additional observations from a re-analysis of the deposited data

How the results depend on the processing

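Of 83 alternatives over 13 counts, 57 stayed within 1.5 times the count reported. No setting gave a promoter peak at a leukocyte gene in KO1. In WT the promoter count of 1 became 0 at a −log10 q of at least 5 and with lists of equal length, and 2 with a window of 3000 bases or any overlap, which added Lck. In KO2 the count of 0 became 3 with every deposited peak kept (Cd74, H2-Ab1 and Ciita) and 1 with a window of 3000 bases or any overlap (Lck). No share over all genes was taken at these alternative settings. The span count of 4 in WT became 2 at a −log10 q of at least 5 and with lists of equal length (Spi1 and Lck in both), 7 with every deposited peak and 8 from 50 kb before the gene. That of 2 in KO1 became 1 at a −log10 q of at least 5, 0 from 5 kb before, 4 from 50 kb before and 1 without peaks at starts of other genes. That of 3 in KO2 became 7 with every deposited peak and 6 from 50 kb before.

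The promoter peak in WT alone (1 gene, H2-Ab1) went to 0 at a −log10 q of at least 5, with lists of equal length and with every deposited peak, and stayed at 1 when KO1 or KO2 was left out. The 2 span peaks in WT alone became 0 at a −log10 q of at least 5, 1 with every deposited peak (Tyrobp) and 0 with lists of equal length. Leaving out KO1 or KO2 gave 2 to 3, the 3 without KO2, where Lck joined Cd3e and H2-Ab1. The 1 span peak in KO1 and KO2 but not in WT (Cd74) became 0 at a −log10 q of at least 5. Among the 77 other leukocyte genes, the count of 6 in KO1 became 3 with a window of 500 bases and that of 13 in KO2 became 8 with lists of equal length. These changes follow from the stricter or looser limits and from the wider or narrower windows themselves. Depth limits the reading of absent peaks most in KO1, where nothing under 6.30 times background was listed. No paired analysis was possible because the sample titles pair no WT library with a KO library.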
